A study of Mus musculus with 7 samples.

Results

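The 129S5 allele was examined in fibroblasts whose 129S5 chromosome 4 carries an engineered deletion in band 4E2. All 257 genes that the authors' table lists for reads assigned to this allele were taken. The gene list of the combined comparison has 15531 genes, called or not, and holds 256 of them. The authors describe that comparison as using counts summed over the alleles. Its means are not sums of the allelic means. In Df/+Bl6, Lgals3 stood at 1010 (129S5), 3790 (C57BL/6J) and 1271 (combined), and Top2a at 690, 951 and 28791. A gene is called listed for an allele or in the combined table when DESeq called it between the genotypes at an FDR of 0.05. In the combined comparison 1346 genes were called. RNA came from 7 independent primary lines of mouse embryonic fibroblasts (MEFs), derived from embryos at day 13.5 and harvested at passage 4 shortly after confluence. The 4 Df/+Bl6 lines inherited the Df chromosome, of 129S5/SvEvBrd origin, from a chimeric father and an intact chromosome 4 from a C57BL/6J mother. The 3 +129/+Bl6 control lines are hybrids of the same strains with both copies of chromosome 4 intact. All lines are therefore heterozygous for 129S5 and C57BL/6J sequence, and only reads that cover a difference between the strains can be given to an allele. Litter, sex and batch of the lines were not given in the sources used here.

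The values are the authors' mean normalized counts of each genotype, and ratios are Df/+Bl6 over +129/+Bl6. No value of a single line could be used, so no SD, interval or new test stands behind any value, and the depth of each line is unknown. The means are not divided by gene length, and allelic counts also depend on the strain differences in a gene, so a higher mean of one gene than of another does not show higher expression. Genes without a row in the table may have changed by less than the call required or may have had too few allelic reads. Which genes were tested on an allele is not named in the columns used, so counts are set against the list of the combined comparison.

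Of the 257 genes, 22 lie inside the deletion, and the other 235 are counted as outside it, among them 2 rising genes without a position. All 22 inside were lower in Df/+Bl6, with a median of 0.486% of the control mean left. Outside, 134 genes rose and 101 fell. The rising genes with a larger mean of at least 100 were led by Knl1 and Top2a (3.66- and 3.30-fold) and include further genes of cell division such as Cenpe, Bub1 and Ccna2. The falling genes include Angptl7, Comp and Sema3b, after 5 genes that were almost absent in Df/+Bl6. Set against the combined list without the deletion, 133 of 15489 genes rose on the 129S5 allele (0.859%) and 101 fell (0.652%). A further rising gene, nonagouti, is not in that list. In the interval taken for the deletion 22 of 42 genes of the list were called (52.4%).

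As background, a dividing cell copies its DNA in S phase with the MCM helicase, polymerases and the sliding clamp PCNA. In mitosis it attaches the copies to the spindle through kinetochores built on centromeres, under the watch of a checkpoint. Many genes of these steps are switched on together late in the cycle through promoter elements called CHR and CCAAT boxes, or earlier through E2F sites. Fibroblasts also make the collagens, laminins and glycoproteins of the extracellular matrix, together with the proteases that remodel it.

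The deletion was taken as the interval between Rere and Ski, whose facing ends lie at 149996075 and 154528184 of chromosome 4 on NCBIM37. The annotation places 85 genes between them. This interval of 4.53 Mb approximates the deletion, whose exact ends were not used here, and unlisted genes near its ends, such as Pex10, Rer1 and Morn1, may not be deleted. The highest control mean was that of Vamp3, a vesicle SNARE protein, which stood at 1702 in +129/+Bl6 and 9.92 in Df/+Bl6. Acot7, an acyl-CoA thioesterase, went from 1645 to 5.80. Icmt, which methylates prenylated proteins such as RAS, went from 1474 to 7.17. Tprgl went from 1450 to 7.03, and Park7, a protein of the oxidative stress response, from 1360 to 3.78. For each of these 5 genes less than 1% of the control mean was left, which was so for 17 of the 22. Pank4 had the lowest share above 0, with 0.0888% left (141.2 to 0.125), followed by Thap3 with 0.154% and Park7 with 0.278%. Rnf207 was listed at 0 in Df/+Bl6 and at 20.1 in +129/+Bl6. The highest shares were those of Zbtb48, a zinc finger protein of telomeres (3.96%, 51.4 to 2.03), the ribosomal protein gene Rpl22 (2.52%, 504.8 to 12.7) and Phf13 (1.28%, 177.9 to 2.27). Rpl22 had the highest mean in Df/+Bl6 of all 22 genes. Prdm16, a transcription factor of brown fat and heart, fell from 92.8 to 0.440, and the clock gene Per3 from 69.5 to 0.690. Summed over the 22 genes, 0.620% of the control level was left.

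**Figure D1:**
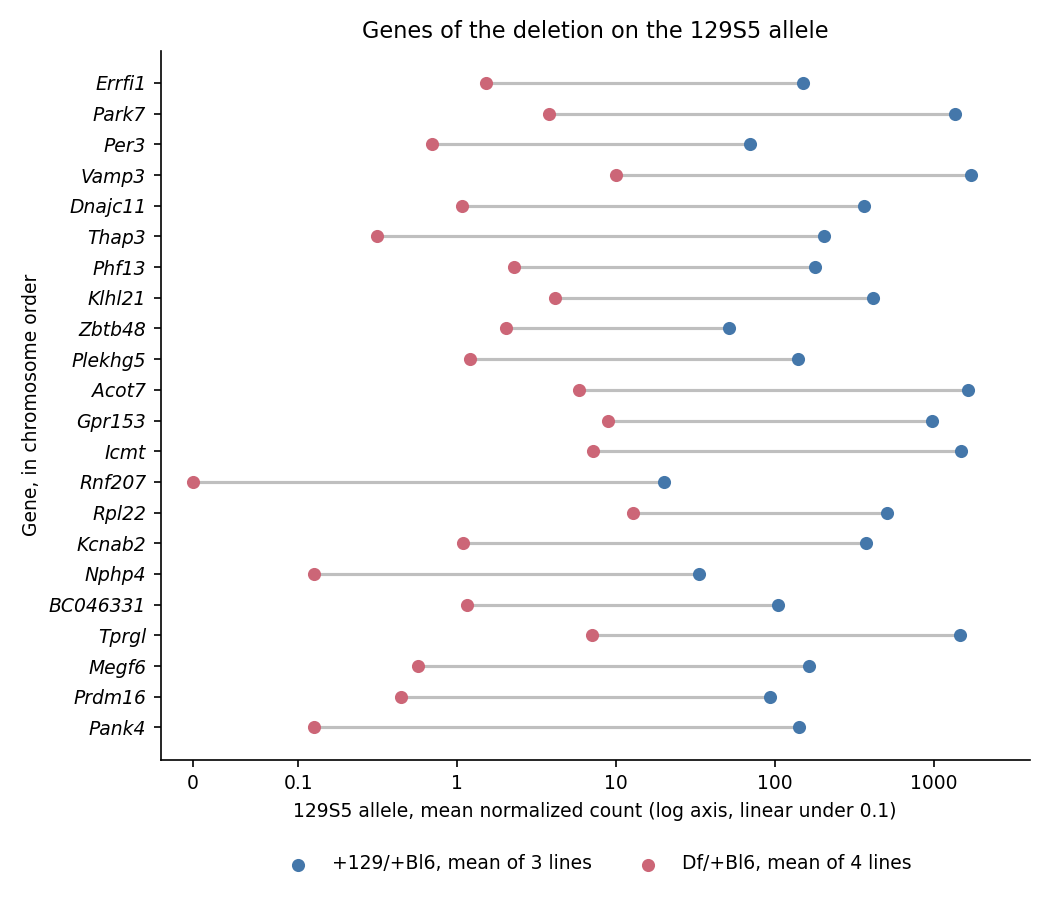
Mean normalized count of the 129S5 allele (log axis, linear under 0.1) for the 22 listed genes of the deletion in chromosome order, as the authors' mean of 3 +129/+Bl6 lines (blue) and of 4 Df/+Bl6 lines (red). The red points lie between 0 and 12.7, all below the blue points, which lie between 20.1 and 1702.

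The intact C57BL/6J copies of the same genes were compared by the authors in a separate table, normalized on its own and made from the same 7 lines. There the log2 ratio of Park7 was -1.19, against -8.49 on the 129S5 allele. It was -0.80 for Acot7, -0.64 for Icmt and -0.61 for Vamp3, against -8.15, -7.68 and -7.42. Tprgl stood at -1.67 on the C57BL/6J allele and Megf6 at -1.70. In the combined comparison, Vamp3 had a log2 ratio of -0.99, Rpl22 of -1.02 and Park7 of -1.33. Acot7 and Icmt had -0.81 and -0.94 there, and Tprgl and Megf6 -1.54 and -1.73. On the intact C57BL/6J chromosome 12 of the 22 genes are listed, each as lower and by a smaller ratio than on the deleted one. Of all 15531 genes of the combined list, 2.09% were called on that allele in either direction. The other 10, among them Rpl22, Pank4, Prdm16 and Per3, have no row for that allele. The authors describe a mapping bias in favour of C57BL/6J. Whether control reads of the 129S5 copies were counted for the C57BL/6J allele was not tested. How far the intact copies themselves were lowered is therefore unknown.

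Outside the deletion the median log2 ratio of the 134 rising genes was 1.05, and 76 of them rose at least 2-fold. The 101 falling genes include 2 that are listed at 0 in Df/+Bl6, and the other 99 had a median log2 ratio of -0.94, with 44 at least 2-fold lower. Since a gene is listed only when it passed the authors' test, these medians describe the called genes. Of all 257 listed genes 102 overlap another annotated gene, and without such genes 81 rose and 61 fell outside the deletion. The median +129/+Bl6 mean was 738.3 for the falling and 171.6 for the rising genes, and the median Df/+Bl6 mean 375.0 and 360.7. Genes of both directions lay on 19 chromosomes each, and none of the 255 genes with a position was X-linked or Y-linked. The combined list held 544 X-linked and 0 Y-linked genes. Of the X-linked genes, 48 were called in the combined comparison and 3 on the other allele.

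**Figure D2:**
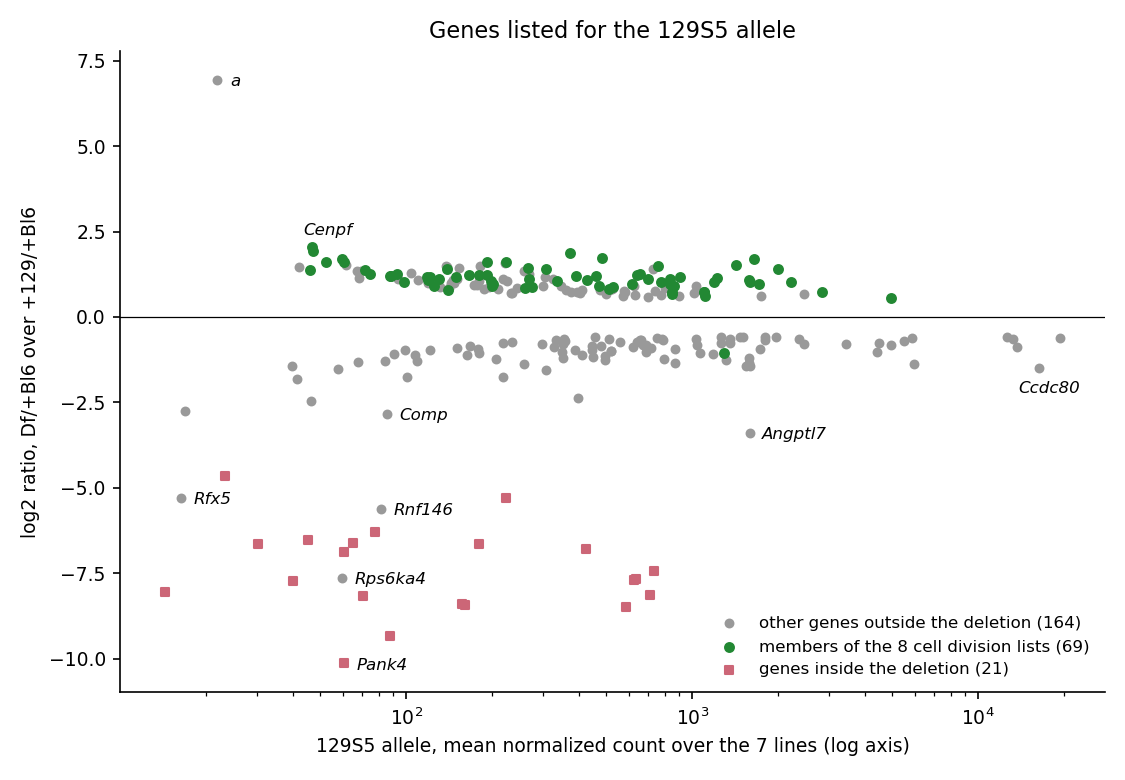
Log2 ratio of Df/+Bl6 over +129/+Bl6 on the 129S5 allele against the mean normalized count over the 7 lines (log axis) for every listed gene with a ratio; 3 genes listed at 0 in Df/+Bl6 have none and are left out. Members of the cell division lists (green) lie above 0 with 1 exception, and the genes of the deletion (red squares) lie at -4.66 or below.

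Among genes with a larger mean of at least 100, the largest rise was that of Knl1 (ENSMUSG00000027326, Casc5 in the annotation), the kinetochore scaffold that recruits the spindle checkpoint. Its mean was 148.9 in +129/+Bl6 and 544.4 in Df/+Bl6, a 3.66-fold rise. Top2a, the topoisomerase that untangles sister chromatids, rose 3.30-fold from 209.1 to 689.7. Cenpe, a kinesin that carries chromosomes to the spindle equator, rose 3.21-fold from 726.3 to 2335. Cep55, which acts in the final cut between daughter cells, rose 3.06-fold, and the checkpoint kinase Bub1 3.03-fold. Shcbp1 rose 2.96-fold, and cyclin A2 (Ccna2), which drives S phase and entry into mitosis, 2.85-fold from 689.2 to 1966. Aunip, an Aurora A partner, rose 2.84-fold, Haus6, a subunit of the augmin complex that branches spindle microtubules, 2.82-fold, and the condensin II subunit Ncapg2 2.80-fold. These 10 genes lie on chromosomes 2, 3, 4, 8, 11, 12 and 19.

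The largest falls of such genes began with Rps6ka4 and Rnf146, which are described further on. Angptl7 (ENSMUSG00000028989), a secreted angiopoietin-like protein, fell from 3282 to 314.4, leaving 9.58%. It lies 2.12 Mb outside the interval on chromosome 4 and overlaps another annotated gene. Comp, a glycoprotein of cartilage and tendon matrix, fell from 167.6 to 23.4, and Sema3b, a secreted guidance protein, from 738.3 to 141.5. Lama3, a laminin chain of basement membranes, fell from 364.7 to 107.4, and Itgb4, the integrin chain that binds such laminins, from 168.3 to 50.1. Cdo1, which oxidizes cysteine, fell from 494.4 to 168.6. Ccdc80, a matrix protein, fell from 25976 to 9153, and Serpine2, an inhibitor of thrombin and urokinase, from 2401 to 886.3. Each of these 8 genes is listed lower by more than 2-fold.

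**Figure D3:**
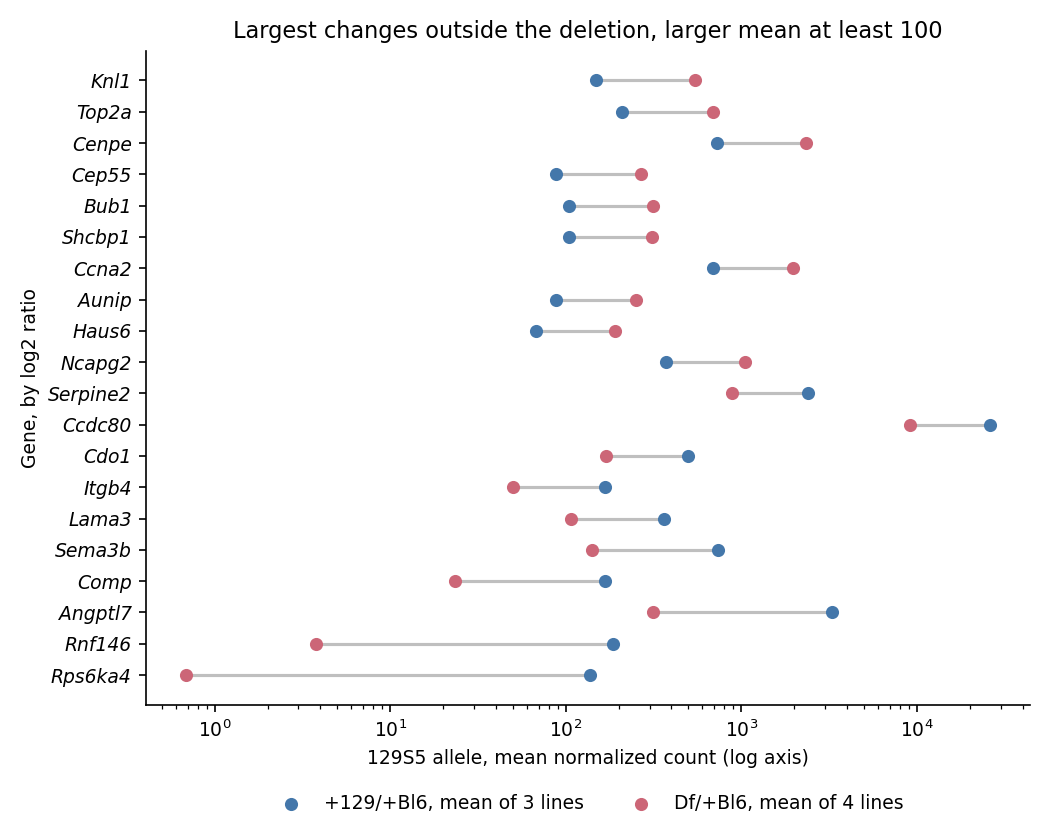
Mean normalized count of the 129S5 allele (log axis) in +129/+Bl6 (blue, mean of 3 lines) and Df/+Bl6 (red, mean of 4 lines) for the 10 largest rises and 10 largest falls outside the deletion among genes with a larger mean of at least 100. Knl1 rose from 148.9 to 544.4, and Angptl7 fell from 3282 to 314.4.

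Across 8 lists of cell division genes, 321 members are in the combined list. Of these 68 rose on the 129S5 allele (21.2%), with a median log2 ratio of 1.13, and 1 fell. Without genes that overlap another annotated gene, 44 rose, but the members left over the 8 lists together were not counted. Over all genes outside the deletion, overlapping ones included, the shares were 0.859% and 0.652%. All gene lists and their members were chosen with earlier results of these data known, so this contrast is not independent of them. The remaining members have no row in the table. In the combined comparison 233 of the 321 were higher and 1 lower. That comparison called 8.67% of all its genes in either direction.

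The kinetochore, centromere and spindle checkpoint list had 17 of 48 members higher and 0 lower. Cenpf, a large protein of the outer kinetochore, had the highest log2 ratio of the list (2.05), with means of 16.7 in controls and 69.2 in Df/+Bl6. The checkpoint kinase Ttk followed Knl1 at 1.69, from 26.2 to 84.2. The centromere subunit Cenpk had 1.61, and Sgo1, which protects centromeric cohesin, 1.43. Bub1b, a further checkpoint protein, rose from 1000 to 2027. The kinase Aurkb and its partner Cdca8, both of the chromosomal passenger complex, had log2 ratios of 0.91 and 1.20.

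Of the spindle, motor and cytokinesis list, 16 of 44 members rose and 0 fell, and 9 of 29 rose without genes that overlap another annotated gene. Kif11, the kinesin that pushes spindle poles apart, had a log2 ratio of 1.61, Ckap2l 1.42 and the midzone bundler Prc1 1.26. Kif14 and Kif23, motors of cytokinesis, had 1.24 and 1.21. Plk1, the kinase needed through most of mitosis, rose from 1111 to 2165, and Aurka from 486.5 to 991.0.

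The replication list had 13 of 55 members higher and 0 lower. The GINS subunit Gins1 led with a log2 ratio of 1.25, followed by Wdhd1 (1.23), Ticrr (1.21), which helps origins to fire, and Pole (1.12), the catalytic subunit of the leading strand polymerase. The kinase subunit Dbf4 rose from 501.6 to 1082. Of the MCM helicase, Mcm6 rose from 970.0 to 2044, Mcm5 from 358.3 to 626.3 and Mcm3 from 793.1 to 1329. Pcna rose from 794.9 to 1333. Both subunits of ribonucleotide reductase, which makes deoxynucleotides, rose, Rrm2 from 1391 to 2822 and Rrm1 from 2059 to 3431. They were the only members called on the 129S5 allele among 25 of the deoxynucleotide and one-carbon list. In the combined comparison 9 of the 25 were higher.

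Cyclins and regulators of mitotic entry and exit had 5 of 44 members higher and 0 lower, and 2 of 21 higher without overlapping genes. These were Ccna2, the transcription factors Mybl2 (log2 ratio 1.41) and Foxm1 (0.96), Ccnf (1.02) and Ccne1 (0.72). In the chromosome structure list 4 of 30 rose, Top2a, Ncapg2, Smchd1 (1.18) and Top2b (0.61), and 1 of 13 without overlapping genes. Ctcf, Smc1a, Smc3 and Rad21 of that list have no row for the 129S5 allele, and in the combined table their log2 ratios were 0.50, 0.58, 0.96 and 0.60. Med1 and Med12 have a row in neither table. Ece1 has none for the 129S5 allele and -0.78 in the combined table.

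Recombination and Fanconi repair genes had 5 of 39 members higher and 0 lower, but 1 of 15 higher without overlapping genes. Among those higher, the nuclease Exo1 had a log2 ratio of 1.40, the helicase Blm 1.37, the damage kinase Atm 0.97 and Fanci 0.79. In the list of histones, chaperones and HMG proteins 6 of 36 rose and 1 fell. Suv39h2, which methylates histone H3 in heterochromatin, had a log2 ratio of 1.94 (18.0 to 69.0), and the maintenance DNA methyltransferase Dnmt1 had 0.67. Hmgb1, the rising gene with the highest mean count, went from 3870 to 5744. None of these 6 encodes a histone. The member that fell was the linker histone H1f2, from 1843 to 880.6, and the histone genes H3c15 and H2aj outside the list also fell, with log2 ratios of -1.45 and -0.77. Rrm1 and Ahctf1, a protein of nuclear pores and kinetochores (1840 to 2926), had the next highest mean counts of the rising genes.

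**Figure D4:**
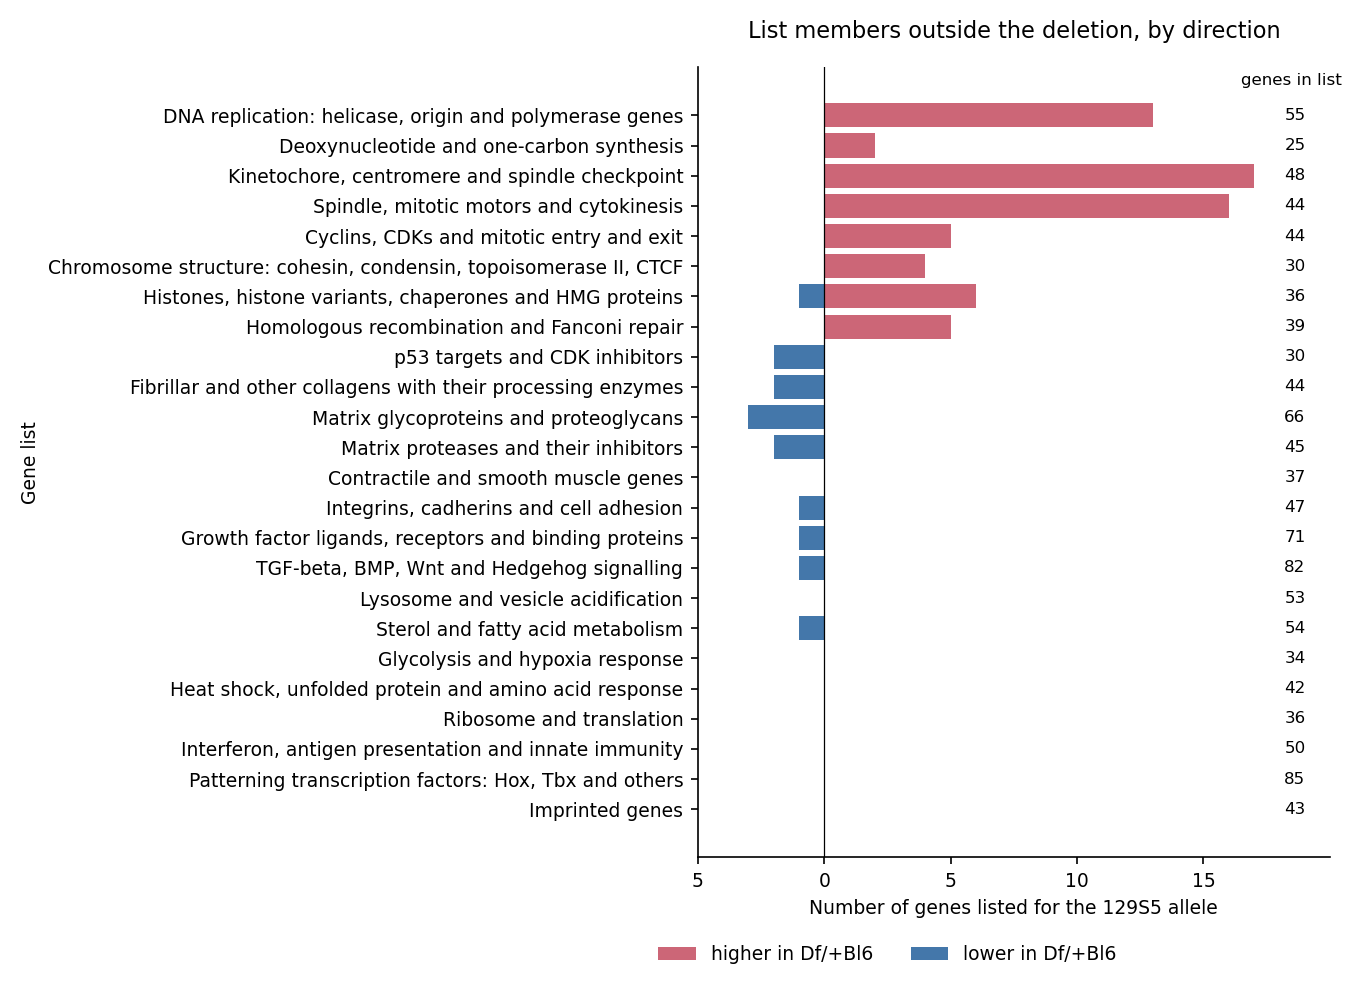
Number of genes listed for the 129S5 allele in each of 24 gene lists, higher in Df/+Bl6 to the right of 0 (red) and lower to the left (blue), with the number of list members outside the deletion that are in the combined list at the right. Rises are found in the 8 cell division lists at the top, with 17 in the kinetochore list, and falls mostly in the lists below them.

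Promoters of the rising division genes were searched for short sequence words. These genes were selected for their rise, so their shared direction follows from the selection. Whether they vary together between lines was not tested. The windows are those of RefSeq on GRCm38.p6, from 250 bases before to 50 after each start, and come from C57BL/6J and not from the 129S5 allele. They belong to 4 of the 10 rises named above that have a single window. Capitals mark every match, on either strand, to the CHR word TTTGAA or its variant TTCGAA, the CCAAT box (CCAAT), E2F words (TTTGGCGC, TTTCCCGC, TTCCCGCC, TTTCGCGC) or the TATA box (TATAAA). Knl1 is at chr2:119046869-119047168 (+ strand), Top2a at chr11:99024140-99024439 (- strand), Cenpe at chr3:135212313-135212612 (+ strand) and Bub1 at chr2:127831810-127832109 (- strand).
Knl1: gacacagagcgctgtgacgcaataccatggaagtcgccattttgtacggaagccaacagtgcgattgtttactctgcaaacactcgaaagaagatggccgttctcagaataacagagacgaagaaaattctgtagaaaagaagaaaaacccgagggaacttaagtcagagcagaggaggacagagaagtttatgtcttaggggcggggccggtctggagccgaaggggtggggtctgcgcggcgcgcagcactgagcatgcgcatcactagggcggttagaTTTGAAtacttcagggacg
Top2a: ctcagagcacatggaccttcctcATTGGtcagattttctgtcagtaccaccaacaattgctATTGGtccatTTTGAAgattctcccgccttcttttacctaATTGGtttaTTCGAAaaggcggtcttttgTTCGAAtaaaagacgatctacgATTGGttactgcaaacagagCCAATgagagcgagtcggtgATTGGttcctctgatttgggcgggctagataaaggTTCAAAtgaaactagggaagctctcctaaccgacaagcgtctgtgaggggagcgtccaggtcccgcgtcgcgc
Cenpe: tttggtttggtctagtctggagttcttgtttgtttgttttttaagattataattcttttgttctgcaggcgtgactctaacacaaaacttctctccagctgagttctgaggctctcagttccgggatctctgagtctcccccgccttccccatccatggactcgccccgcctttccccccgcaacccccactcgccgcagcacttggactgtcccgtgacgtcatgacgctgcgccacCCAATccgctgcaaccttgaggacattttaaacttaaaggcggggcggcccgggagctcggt
Bub1: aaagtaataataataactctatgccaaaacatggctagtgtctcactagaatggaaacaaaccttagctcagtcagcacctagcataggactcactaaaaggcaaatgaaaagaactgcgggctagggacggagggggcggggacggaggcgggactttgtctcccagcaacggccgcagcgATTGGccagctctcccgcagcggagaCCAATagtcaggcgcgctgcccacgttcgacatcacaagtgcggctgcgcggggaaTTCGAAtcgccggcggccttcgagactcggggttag
The Top2a window held 10 matches, 6 of them CCAAT boxes, the Bub1 window 3, and the Knl1 and Cenpe windows 1 each. The E2F words TTTCCCGC and TTCCCGCC can overlap each other. Of the 134 rising genes 102 had a window by symbol, and 75 of the 101 falling genes. TTTGAA stood in 47.7% of 65 windows of rising division genes, in 32.8% of 116 windows of all rising genes and in 12.6% of 103 windows of falling genes. All 32851 windows held it in 17.9%, and the 21263 windows of protein-coding genes in 16.0%. The variant TTCGAA stood in 6.15%, 4.31% and 4.85% of the same 3 sets, against 1.56% of all windows. CCAAT stood in 69.2%, 57.8% and 38.8% of the same 3 sets and in 37.4% of all windows. Any of the E2F words stood in 15.4%, 15.5% and 3.88%, against 3.49% of all windows. TATAAA stood in 3.08%, 3.45% and 9.71%, against 13.6%. All members of the division lists, called or not, held TTTGAA in 31.9%, CCAAT in 57.1%, an E2F word in 24.2% and TATAAA in 6.45% of 310 windows. A match is a string of letters, and binding was not measured.

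Of the 101 falling genes 87 belong to none of the 24 functional lists. In the 4 lists of matrix and adhesion genes, 8 of 202 members fell (3.96%), with a median log2 ratio of -0.98, and 0 rose. Of all genes outside the deletion 0.652% fell, and these lists too were chosen with earlier results known. Matrix glycoproteins had 3 of 66 lower, Comp, Lama5 (log2 ratio -1.15) and Lamb2 (-0.76), both laminin chains. Collagens and their enzymes had 2 of 44 lower. Col5a2, a chain of collagen V, fell from 24084 to 15724, and Loxl4, which crosslinks collagen, from 4536 to 2607. Matrix proteases and inhibitors had 2 of 45 lower, Serpine2 and the gelatinase Mmp2, from 16581 to 10616. Itgb4 was the member called among 47 adhesion genes, and it overlaps another gene. Col5a2, Ccdc80 and Cyb5r3, a reductase of the endoplasmic reticulum (18391 to 10102), had the highest mean counts of the falling genes.

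Other lists held few called genes. The list of p53 targets and CDK inhibitors had 2 of 30 members lower. These were Perp, a p53 target of cell junctions (2493 to 925.7), and Cdkn2b, an inhibitor of CDK4 and CDK6 (7365 to 4774). Bmp4, a growth factor of the TGF-beta family, fell from 2416 to 950.8, and Srebf1, a regulator of lipid synthesis, from 998.5 to 629.7. Bmp4 was the single called member outside the deletion among 82 genes of its list (1.22%), and Srebf1 among 54 (1.85%). For the growth factor list it was Angptl7, among 71 (1.41%). Each overlaps another gene. Of all genes outside the deletion 0.652% were lower. Lists of contractile genes, glycolysis and hypoxia, stress response, ribosome and translation, interferon response and patterning factors had 0 called members outside the deletion, and so did the 43 genes of the imprinted list. That list is not complete, and the imprinted gene Zdbf2 outside it rose from 131.4 to 241.3. The lysosome list had 0 of 53 called on the 129S5 allele, while 24 of 53 were lower in the combined comparison. Lysosomal genes outside the list were called, with Clcn7 at a log2 ratio of -0.62 and Hyal1 at -1.11. The combined comparison called 8.67% of its 15531 genes and, as the authors describe it, uses the reads of both alleles. A gene missing from the allelic table was therefore not shown to be unchanged. The C57BL/6J table called 325 of the 15531 (2.09%).

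Marker genes of the labelled cell type and of others were looked up as well. None of 15 fibroblast markers in the combined list was called on the 129S5 allele. In the combined comparison 1 of them, Fn1, was lower, with a log2 ratio of -0.69, and the levels of the other 14 are not in the columns used. Of 15 cartilage and bone markers, 2 were lower, Comp and the transcription factor Sox6 (305.1 to 130.0), and the other 13 have no row for this allele. Of all genes outside the deletion 0.652% were lower on this allele. In the combined comparison Alpl was lower besides Comp and Sox6, with a log2 ratio of -2.16. Of 12 endothelial markers 1 was lower there, Eng (-0.85), against 8.67% of all genes called there in either direction. For the 14 Schwann cell and neural crest markers 0 were called on the 129S5 allele. In the combined comparison 6 were lower, with log2 ratios from -1.09 (Erbb3) to -2.32 (S100b). That comparison called 8.67% of all genes in either direction. Markers of skeletal muscle, macrophages and blood, endothelium, epithelium, liver and fat had 0 called members on this allele. These lists are short, and outside them the fat gene Plin4 fell from 87.4 to 15.8 and the muscle gene Myom1 from 741.8 to 311.1. The part of other cell types in the falls above was not tested. In bulk RNA fewer cells of a type and less RNA per cell cannot be told apart.

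Further called genes belong to none of the lists and were chosen here after their values were seen. Rising ones include Rif1, which acts in replication timing and repair (376.3 to 992.0), Pclaf, a PCNA partner (77.3 to 208.5), and the centrosome genes Cep192 and Pcm1 (log2 ratios 0.76 and 0.79). The splicing factor genes Srsf1 and Srsf6 had 0.91 and 0.67. Falling ones include Anxa8, an annexin (9189 to 3550), Cryab, a small heat shock protein (1338 to 521.0), and the guidance gene Sema3f (1972 to 818.7). Sulf1 and Sulf2, which trim sulfates from heparan sulfate, had -0.86 and -0.93, and the kinase gene Dmpk -1.22.

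On chromosome 4 outside the deletion 17 genes were listed, 7 higher and 10 lower. Of the 948 genes of the chromosome in the combined list and outside the deletion, this is 0.738% and 1.05%, against 0.859% and 0.652% of all genes. The risers were Casp8ap2 (log2 ratio 0.94), Psip1 (1.16), Haus6 (1.49), Cdca8 (1.20), Pdik1l (1.07), Stmn1 (1.18) and Aunip (1.51). Besides Angptl7 and Cdkn2b, the lower genes include Tbc1d2 (-1.02), Svep1 (-1.01), Hyi (-0.81), Sytl1 (-1.38), Trnp1 (-0.96), Hspb7 (-0.74) and Mxra8 (-0.71). Mxra8, a matrix and adhesion protein, lies 0.686 Mb from the interval on its far side and kept 60.9% of its control mean.

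A group of 5 genes outside the deletion, which stand out by a share no higher than the highest inside it and were chosen after their values were seen, was almost absent from the 129S5 reads of Df/+Bl6. Rps6ka4, a kinase of the MAPK pathway on chromosome 19, stood at 137.7 in +129/+Bl6 and 0.690 in Df/+Bl6. Rnf146, a ubiquitin ligase on chromosome 10, stood at 184.8 and 3.78, and Rfx5, a factor of MHC class II genes on chromosome 3, at 36.8 and 0.942. Wdr35, a gene of cilia on chromosome 12, and Cdip1 on chromosome 16 were listed at 0 in Df/+Bl6, against 52.2 and 16.4. The next lowest share outside the deletion was the 9.58% of Angptl7. None of these 5 genes has a row in the C57BL/6J or the combined table. The reverse was seen for nonagouti (a), the coat colour gene on chromosome 2, at 0.309 in +129/+Bl6 and 38.0 in Df/+Bl6. It also rose on the C57BL/6J allele, with a log2 ratio of 8.03 against 6.94 on the 129S5 allele. Which lines carry these differences cannot be seen from group means, and their cause was not tested.

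The largest changes named above were looked up on the C57BL/6J allele and in the combined counts. These comparisons use the same lines, so the values are set side by side only. Knl1 had log2 ratios of 1.87 on the 129S5 allele, 1.93 on the C57BL/6J allele and 1.87 combined. Top2a had 1.72, 1.69 and 1.47, and Ccna2 1.51, 1.36 and 1.26. Angptl7 had -3.38, -3.16 and -3.40, Comp -2.84, -2.40 and -2.53, and Ccdc80 -1.50, -1.32 and -1.32. Gm16096, chosen after its values were seen, differed more, with 1.45 on the 129S5 and 3.29 on the C57BL/6J allele. Genes without a row on the C57BL/6J allele were led in their rises by Cenpk, Zfp942 (log2 ratio 1.35), Cep128 (1.30), Cenpl (1.20) and Dtl (1.20). Their combined log2 ratios were 1.29, 0.91, 1.02, 1.17 and 1.07.

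**Figure D5:**
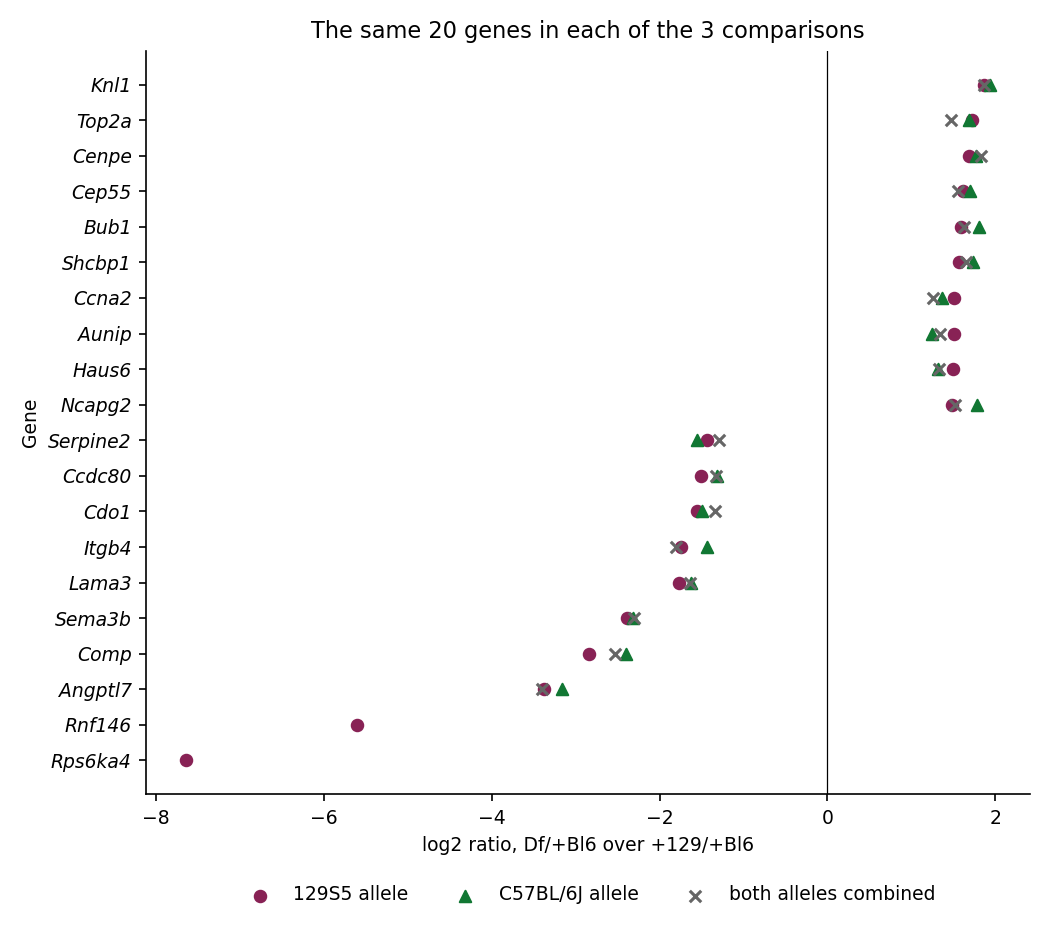
Log2 ratio of Df/+Bl6 over +129/+Bl6 for the same 20 genes on the 129S5 allele (circles), on the C57BL/6J allele (triangles) and in the combined comparison (crosses). Rps6ka4 and Rnf146 have a value on the 129S5 allele only, while for Knl1 the 3 values are 1.87, 1.93 and 1.87.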

How the data were processed

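Stranded paired-end polyA+ libraries of 7 MEF lines were aligned by the authors with GSNAP, without mismatches, to C57BL/6J and 129S5/SvEvBrd transcriptomes (GRCm38/mm10). The gene set was that of Ensembl release 72. Software versions are not given in the sources used here. The deposited signal values are mean counts per gene, scaled by the authors with DESeq size factors and then averaged within a genotype. The tables hold genes past an FDR of 0.05. They also hold the authors' fold changes, p-values and adjusted p-values, which were not used. A further file has 9 columns of values without names, and only its gene identifiers were read.

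The mean over lines equals the group means weighted by 4 and 3 for 257 of 257 genes. Log2 ratios were computed without a pseudocount. Positions come from the GENCODE annotation of NCBIM37, which places 255 of the 257 genes (the other 2 were counted as outside the deletion), and current symbols from RefSeq, which changed 21. Named genes include the extremes inside the deletion. Outside it they include the 10 largest rises and falls with a larger group mean of at least 100. Also named are genes with the highest means, chromosome 4 genes, genes missing from the C57BL/6J table and genes of the study's question. Of most lists up to 8 members were named. Further called genes were added, some of them chosen after their values were seen. Members and lists were chosen with earlier results of these data known. There are 24 functional and 9 marker lists. No test between lines was run. The ratio and the motif search were checked on simulated data. Python 3.11.15, numpy 2.4.6, pandas 2.3.3 and matplotlib 3.10.9 were used.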

Additional observations from a re-analysis of the deposited data

How the results depend on the processing

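None of the settings could turn a direction. A pseudocount keeps the sign of a ratio, and the others only change which genes are counted. With a pseudocount of 1 or 10 the median share left inside the deletion was 1.12% or 5.45% in place of 0.486%, and the median log2 ratio -6.49 or -4.21 in place of -7.68, since the pseudocount exceeds many Df/+Bl6 means. At a fold of 1.5, 133 genes were higher and 96 lower outside the deletion, and at a fold of 3, 11 and 11, in place of 76 and 44. These lower counts cover the 99 falling genes with a ratio. They leave out Wdr35 and Cdip1, which are listed at 0 in Df/+Bl6. Without genes that overlap another annotated gene, 81 rose and 61 fell, 44 of the risers in the division lists, in place of 134, 101 and 68, since fewer genes are counted. The other 39 values of these overall counts and medians moved by at most 1.5-fold. Counts of single lists moved by more in 9 cases. Without overlapping genes the spindle list had 9 members higher in place of 16, the cyclin list 2 in place of 5, the chromosome structure list 1 in place of 4 and the recombination list 1 in place of 5, while the adhesion, growth factor, TGF-beta and sterol lists had 0 lower in place of 1 each. Among genes also in the C57BL/6J table the chromosome structure list had 2 in place of 4. Of the log2 ratios of named genes, 9 moved by more with a pseudocount of 1 and 18 with 10, all of genes inside the deletion, of Rps6ka4, Rnf146 and Rfx5 or of nonagouti.

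No paired analysis was possible because the authors' columns are group means without a value per line. Leaving out each line in turn was not run for the same reason, and whether 1 line decides a value is unknown. Of the listed genes, 102 overlap another annotated gene on either strand. The depth of each line is unknown.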
